A study of Mus musculus with 33 samples.

Results

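Six3, Six6, Lhx2, Rax, Hesx1, Emx2, Otx1, Fezf2 and Nkx2-1, 9 transcription factor genes that pattern the forebrain and the eye field, were followed through 33 RNA-seq libraries of mouse E14TG2a embryonic stem cells (mESCs) and of the embryoid bodies (EBs) grown from them. The 9 genes were picked by name for that role among the 37991 gene identifiers of the count files. The question was whether EBs grown without retinoic acid (RA) take on an anterior neural character in the mutants, and whether RA suppresses it. All lines came from E14TG2a by CRISPR/Cas9 transfection and puromycin selection, the controls with a vector that carried no guide. Control (clones #1, #4 and #7), Neil1-mutant (clones #7, #9 and #11) and Neil2-mutant (clones #1, #11 and #14) lines each gave 3 libraries per stage. NEIL1 and NEIL2 are DNA glycosylases of base excision repair, and APEX1 is the endonuclease that acts after them. The Apex1 mutant was 1 clone (#46) run in technical duplicate, so its 2 libraries per stage hold no spread between clones and p-values for it do not cover that spread. The stages were undifferentiated mESCs, EBs harvested on day 8, and EBs + RA. The EBs + RA were given 5 µM RA on day 4 and again later, and harvested on day 8. Stages and genotypes together make 12 groups.

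The anterior neural plate of the embryo forms where Wnt, BMP and RA signals are kept low. Within it Six3, Rax, Six6 and Lhx2 mark and build the eye field, Hesx1 and Otx1 act in the anterior forebrain, Emx2 patterns the dorsal telencephalon, Fezf2 specifies forebrain and subcerebral neurons, and Nkx2-1 defines the ventral forebrain and hypothalamus. RA moves neural tissue towards hindbrain and spinal cord identity. Several of these genes also work outside the brain: Emx2 in the urogenital system, which arises from intermediate mesoderm, Nkx2-1 in thyroid and lung, which arise from foregut endoderm, Hesx1 in the pituitary and in pluripotent cells, and Lhx2 in limb, liver and hair follicle.

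The values were read counts per gene, scaled by TMM to the usual library-size unit (CPM). Totals on genes ran from 21523742 to 48350904 per library with a median of 26720028, so that 3 counts, the limit that a count of 0 allows, corresponded to 0.0620 to 0.139 CPM. These limits cover counting error only. Gene counts did not measure the deletions themselves. Apex1 was counted at 73.7 CPM ± 2.40 (s.d., n = 2) in mESC libraries labelled Apex1 against 11.2 CPM ± 5.74 (s.d., n = 3) in control mESCs. The paper removed only the part of the gene around the active site, so that counts over the whole gene need not fall. It checked the Apex1 line by genotyping PCR and a western blot for APEX1, but the label could not be checked from the counts. Neil1 varied between Neil1-labelled mESC libraries from 2.51 to 31.6 CPM. Directions given for the mutants therefore refer to the libraries as labelled. The Neil1 mESC library of clone #11 lacked any read for 345 of the 511 X-linked genes that all the other mESC libraries counted at least 10 times. None of the 9 genes is X-linked.

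Six3 was counted 2 times in all 33 libraries together, with 1 read in control EBs + RA (clone #7) and 1 in Neil1 EBs + RA (clone #7). A single read lies below the limit of 3 that a count of 0 allows. Six6 reached 82 counts in all libraries, Fezf2 75, Rax 219 and Nkx2-1 291, and in none of the 12 groups did any of these 5 genes average 1 CPM. Their highest group means were 0.0110 CPM for Six3 and 0.244 CPM for Six6, both in control EBs + RA, 0.395 CPM for Rax in Neil2 mESCs, 0.137 CPM for Fezf2 in Apex1 EBs and 0.696 CPM for Nkx2-1 in Neil1 EBs + RA. Of the eye field genes among the 9, Lhx2 alone averaged 1 CPM or more in any group, and of the others Emx2, Hesx1 and Otx1. Six3 overlaps the antisense gene Six3os1 (0 counts in all libraries), Six6 overlaps 4930447C04Rik on the opposite strand over 889 bases, Lhx2 overlaps Gm13584 over 4401 bases (4 counts in all libraries), and Rax overlaps Raxos1. The library kit does not mark strand, so that reads in such overlaps cannot be assigned to one gene or the other.

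Lhx2 (ENSMUSG00000000247, chr2:38194801-38225253, plus strand, NCBIM37) and Emx2 (ENSMUSG00000043969, chr19:59533180-59539847, plus strand) were the most abundant members, and both were highest in control EBs + RA. Per kilobase of exon, their levels there were 4.21 and 4.49 CPM. Hesx1 (ENSMUSG00000040726, chr14:27813548-27815515, plus strand) peaked in Neil1 EBs at 2.20 CPM per kilobase, and Otx1 (ENSMUSG00000005917, chr11:21894767-21902900, minus strand) in Neil1 EBs + RA at 0.255 CPM per kilobase. The 4 maxima thus lay in 3 different groups. The log2 CPM of Lhx2 and Emx2 had a Pearson r of 0.78 over the 33 libraries, Hesx1 ran opposite to both (r = −0.54 and −0.58), and Otx1 had an r of 0.13 with Lhx2 and −0.10 with Emx2. These are descriptions of libraries that share stage and genotype.

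**Figure D1:**
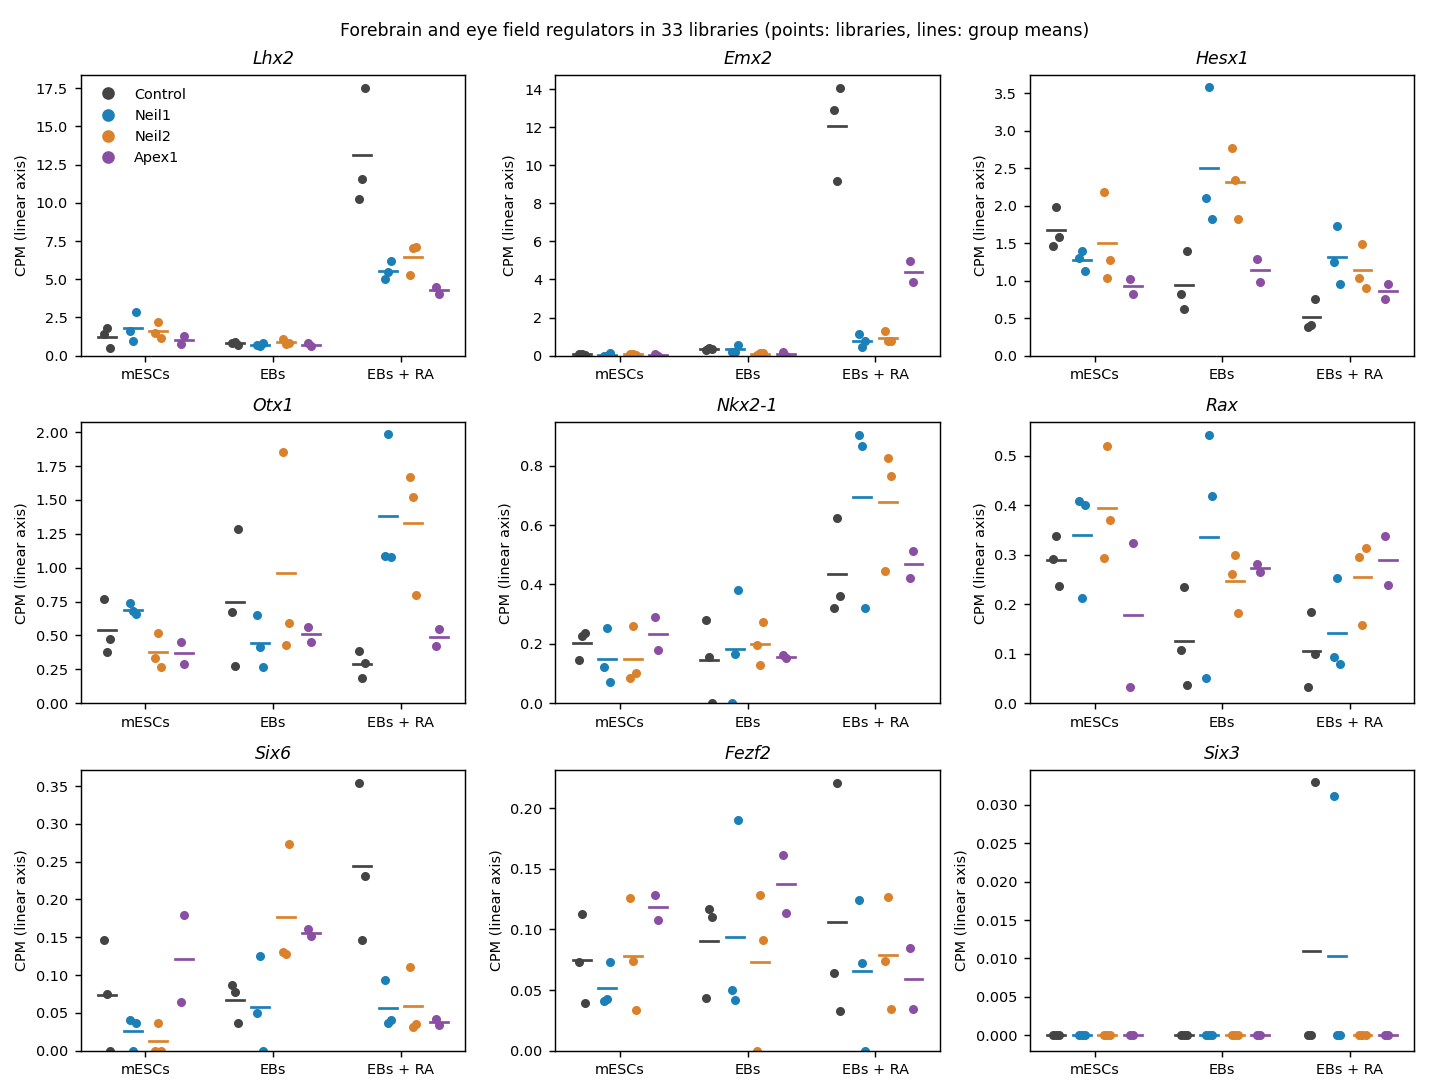
CPM of the 9 genes in all 33 libraries on linear axes that differ between panels, with points for libraries, lines for group means and colours for genotypes. Lhx2 and Emx2 stand highest in control EBs + RA (means of 13.1 and 12.0 CPM), Hesx1 in Neil1 and Neil2 EBs (2.51 and 2.31 CPM), and Six3 has 1 read in each of 2 libraries.

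The 250 bases before the annotated start are shown for Emx2 and Lhx2, which rose in all 4 genotypes with RA, and for Hesx1, the member called in EBs without RA. Cyp26a1, which encodes the enzyme that breaks down RA and is a known direct RA target, is shown for comparison. RefSeq held such windows for 7 of the 9 genes (build GRCm38.p6, another build than that of the counts). Motifs were chosen after the values were known: AGGTCA and AGTTCA, the half-sites of retinoid receptors, and GGATTA, a bicoid-type homeodomain site, each on both strands. Capitals mark matches.
Emx2, chr19:59458440-59458689, plus strand: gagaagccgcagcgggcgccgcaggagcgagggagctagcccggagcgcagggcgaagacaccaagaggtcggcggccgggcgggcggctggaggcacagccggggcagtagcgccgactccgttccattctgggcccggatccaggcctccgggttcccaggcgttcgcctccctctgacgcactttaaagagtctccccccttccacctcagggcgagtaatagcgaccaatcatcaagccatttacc
Lhx2, chr2:38339031-38339280, plus strand, the first of its annotated starts: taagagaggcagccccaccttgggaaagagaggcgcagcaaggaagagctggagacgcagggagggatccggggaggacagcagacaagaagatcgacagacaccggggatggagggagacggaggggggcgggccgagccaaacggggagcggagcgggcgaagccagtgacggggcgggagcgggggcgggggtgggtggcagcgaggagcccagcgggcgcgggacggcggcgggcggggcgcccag
Hesx1, chr14:27000112-27000361, plus strand: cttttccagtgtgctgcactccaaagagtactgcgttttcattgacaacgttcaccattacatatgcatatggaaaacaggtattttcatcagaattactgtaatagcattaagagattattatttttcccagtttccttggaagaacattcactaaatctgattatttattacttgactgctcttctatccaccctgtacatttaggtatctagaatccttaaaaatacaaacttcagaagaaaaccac
Cyp26a1, chr19:37697558-37697807, plus strand: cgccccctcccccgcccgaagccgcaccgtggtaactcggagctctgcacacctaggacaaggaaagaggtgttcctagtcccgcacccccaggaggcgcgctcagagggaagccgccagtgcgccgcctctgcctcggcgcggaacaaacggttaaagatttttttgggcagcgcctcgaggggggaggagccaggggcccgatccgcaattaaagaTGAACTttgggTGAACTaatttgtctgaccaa
None of the windows of the 7 members held a match. Of 32851 promoter windows of the same length, 14% held AGGTCA, 11.8% held AGTTCA and 6.25% held GGATTA. The Cyp26a1 window held AGTTCA in reverse at 32 and at 21 bases before the start. The Emx2 and Lhx2 windows were 67.2% and 72.8% G + C and that of Hesx1 34%. A match is no proof of a site, and its lack says only that these letters are not in the window.

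In undifferentiated mESCs no difference in the members passed the thresholds. By edgeR's quasi-likelihood test, a gene was called when its FDR was below 0.1 and its log2 fold change larger than 0.5 in either direction. Lhx2, Hesx1 and Otx1 had enough counts to be tested, and 0 of the 3 was called in Neil1 (1.82% of all genes tested were called, 1.03% higher and 0.784% lower), Neil2 (1.83%, 1.4% and 0.429%) or Apex1 (16.9%, 7.87% and 9.07%). At an unadjusted p below 0.05 the counts were 0, 0 and 1, and DESeq2 called 0 in each. The gene behind the 1 was Hesx1, at 0.926 CPM ± 0.142 (s.d., n = 2) in Apex1 and 1.68 CPM ± 0.276 (s.d., n = 3) in control mESCs, with a log2 fold change of −0.86 ± 0.32 (s.e.) and an FDR of 0.124.

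In EBs without RA the mutants differed from the controls in 1 member. Hesx1, a repressor needed for the anterior forebrain and the pituitary, was counted at 0.821, 0.624 and 1.40 CPM in the 3 control EB libraries. It stood at 2.10, 3.59 and 1.82 CPM in Neil1 EBs and at 2.77, 2.35 and 1.82 CPM in Neil2 EBs. Every Neil1 and Neil2 library lay above every control library, a lack of overlap seen in 43.5% and 32.8% of all genes tested. Hesx1 rose by 1.40 ± 0.37 (s.e.) on the log2 scale in Neil1 EBs (FDR = 0.0167) and by 1.29 ± 0.37 in Neil2 EBs (FDR = 0.0516). In Neil1 EBs 23.5% of all genes tested were called (10.4% higher and 13.1% lower) and in Neil2 EBs 16.3% (8.65% higher and 7.69% lower), and 1 of 3 tested members was called in each. The Neil2 call was lost when control EB replicate 1 or 2 was left out, with log2 fold changes between 1.08 and 1.67 over all such fits. In Apex1 EBs Hesx1 read 1.29 and 0.983 CPM, within the range of the controls (log2 fold change 0.29, 95% interval −0.58 to 1.15). Of the 3 tested members 0 was called in Apex1 EBs, where 25.8% of all genes were called (11.9% higher and 13.9% lower). None of the 3 reached an unadjusted p below 0.05, and DESeq2 called 0.

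Lhx2, a LIM-homeodomain factor of the eye field and cortex, did not separate the EBs. Control EBs averaged 0.806 CPM ± 0.100, Neil1 EBs 0.721 CPM ± 0.106 and Neil2 EBs 0.899 CPM ± 0.182 (s.d., n = 3), and Apex1 EBs 0.725 CPM ± 0.116 (s.d., n = 2). The 95% intervals of its log2 fold changes were −0.85 to 0.53, −0.55 to 0.89 and −0.91 to 0.65. Otx1, a bicoid-type factor of the forebrain and midbrain, spread from 0.273 to 1.29 CPM among the control EBs and from 0.427 to 1.86 CPM among the Neil2 EBs, so that the groups overlapped. The other 6 members were not tested in EBs because of low counts. Emx2 was read 15, 11 and 9 times in the control EBs against 4, 5 and 15 times in Neil1 and 1, 3 and 3 times in Neil2 EBs. Without the filter on low counts, Emx2 was lower in Neil2 EBs (log2 fold change −1.90, FDR = 0.0913) and in Apex1 EBs (−1.80, FDR = 0.0673). Rax, the retinal homeobox factor, ranged from 1 to 6 counts in control EBs and from 1 to 13 in Neil1 EBs.

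From mESCs to EBs without RA, Emx2 went from 2, 3 and 1 counts to 15, 11 and 9 counts in the controls. It did not pass the filter, and without the filter it was called higher in control (log2 fold change 2.18, FDR = 0.0169) and in Neil1 lines (2.56, FDR = 0.0405). Six6 was called higher without the filter in Neil2 lines (3.37, FDR = 0.0464), from 0, 1 and 0 counts to 4, 3 and 6 counts. Of the members that passed the filter, in control lines 1 of 3 tested members was called (38.7% of all genes, 18.5% higher and 20.2% lower): Hesx1 fell by 0.86 on the log2 scale (s.e. 0.36, FDR = 0.0861), from 1.46, 1.99 and 1.58 CPM to the values above. With the clone as a block this call was lost (log2 fold change −0.90, FDR = 0.123), as it was by DESeq2 (adjusted p = 0.104), without the filter (FDR = 0.120) and without the first or the second clone at either stage. In Neil1 lines 2 of 4 tested members were called (27.9% of all genes, 13.1% higher and 14.7% lower). Hesx1 rose by 0.96 ± 0.33 (FDR = 0.0550), and Lhx2 fell by 1.35 on the log2 scale (s.e. 0.42, FDR = 0.0398), from 1.64, 0.977 and 2.87 CPM to 0.701, 0.626 and 0.836 CPM. Neither was called without the mESC library of clone #11 (log2 fold changes 0.88 and −0.86) or without the EB library of clone #9. In Neil2 and Apex1 lines 0 of 3 was called, where 27.4% (14.4% higher and 13.1% lower) and 38.7% (18.4% higher and 20.3% lower) of all genes were. At an unadjusted p below 0.05 the counts were 2 (Lhx2 and Otx1) and 0, and DESeq2 called 0 of these 3 in both.

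RA raised Lhx2 and Emx2 rather than lowering them. In control lines Lhx2 went from 0.821, 0.897 and 0.699 CPM in EBs to 10.2, 11.6 and 17.5 CPM in EBs + RA of the same clones, and Emx2 from 0.324, 0.429 and 0.331 CPM to 12.9, 9.19 and 14.1 CPM. All 3 clones rose, and the groups did not overlap, as was the case for 60.2% of all genes tested. The rise was 16.6-fold for Lhx2 (log2 fold change 4.05 ± 0.28, FDR = 1.02e-05) and 34.2-fold for Emx2 (5.09 ± 0.28, FDR = 3.32e-06). Otx1 fell by 1.31 on the log2 scale (s.e. 0.56, FDR = 0.0818), from 0.670, 0.273 and 1.29 CPM to 0.386, 0.184 and 0.296 CPM. This call held in 1 of 6 fits that left out 1 library, that without the EB library of clone #4, and was lost by DESeq2 (adjusted p = 0.116). Hesx1 stood at 0.386, 0.404 and 0.757 CPM in control EBs + RA, lower than in EBs in all 3 clones. Its log2 fold change was −0.83 ± 0.42 (FDR = 0.131) and −0.85 with the clone as a block (FDR = 0.0502), which passed the threshold. In this comparison 44.1% of all genes tested were called (23.3% higher and 20.7% lower), and 3 of 4 tested members. Emx2 passed the filter here through the EBs + RA libraries, as it did in the mutants. Nkx2-1 and Six6 did not pass the filter here. Nkx2-1 went from 13, 4 and 0 counts in control EBs to 10, 17 and 11 counts in EBs + RA, with a higher CPM in all 3 clones, and was not called without the filter (FDR = 0.103). Six6 went from 4, 2 and 1 counts to 11, 4 and 7 counts and was called higher without the filter (log2 fold change 1.79, FDR = 0.0571).

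In Neil1 lines 4 of 4 tested members were called between EBs and EBs + RA, where 53.4% of all genes were (28.2% higher and 25.2% lower). Lhx2 rose 7.58-fold to 5.04, 5.45 and 6.17 CPM (log2 fold change 2.92 ± 0.27). Emx2 rose 2.32-fold to 1.12, 0.469 and 0.761 CPM (1.21 ± 0.53, FDR = 0.0801), a call that was lost by DESeq2 (adjusted p = 0.145) and without the EB library of clone #7 or #9 or the EBs + RA library of clone #7 (0.97, 0.95 and 0.87). Otx1 rose 3.12-fold to 1.09, 1.98 and 1.08 CPM, above all 3 Neil1 EB libraries (1.64 ± 0.44, FDR = 0.0134). Hesx1 fell by 0.94 on the log2 scale, to 1.24, 1.73 and 0.961 CPM (s.e. 0.36, FDR = 0.0525). It was lower with RA in all 3 clones, and the call was lost without the EB library of clone #9 or the EBs + RA library of clone #7. Nkx2-1 went from 0, 4 and 10 counts to 29, 24 and 8 counts and was called higher without the filter (log2 fold change 1.81, FDR = 0.0572).

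In Neil2 lines 4 of 5 tested members were called, where 42.4% of all genes were (21.4% higher and 21% lower). Lhx2 rose 7.17-fold to 5.30, 7.04 and 7.13 CPM (log2 fold change 2.84 ± 0.30), and Emx2 rose 9.76-fold to 1.30, 0.793 and 0.766 CPM (3.29 ± 0.56, FDR = 0.00292). Nkx2-1 rose 3.40-fold, from 6, 3 and 6 counts to 12, 26 and 22 counts (1.76 ± 0.47, FDR = 0.0182). Hesx1 fell by 1.01 on the log2 scale, to 1.04, 1.49 and 0.905 CPM (s.e. 0.34, FDR = 0.0437), a call lost without the EBs + RA library of clone #14. In Apex1 lines 3 of 5 were called, where 48.9% of all genes were (26.3% higher and 22.6% lower): Lhx2 rose 5.84-fold (2.55 ± 0.29), Emx2 rose 42.8-fold (5.42 ± 0.56) from 5 and 0 counts, and Nkx2-1 rose 2.94-fold (1.56 ± 0.57, FDR = 0.0312). The Emx2 log2 fold change was 9.86 without the first Apex1 EB library, which left 0 counts in EBs, and 4.41 without the second. The Nkx2-1 call was lost by DESeq2 (adjusted p = 0.266) and without either EB library or the second EBs + RA library. Neither Emx2 nor Nkx2-1 passed the filter in any comparison without EBs + RA libraries. In Neil2 and Apex1 lines both passed it here through those libraries, so that a rise was favoured by the choice of genes tested.

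**Figure D2:**
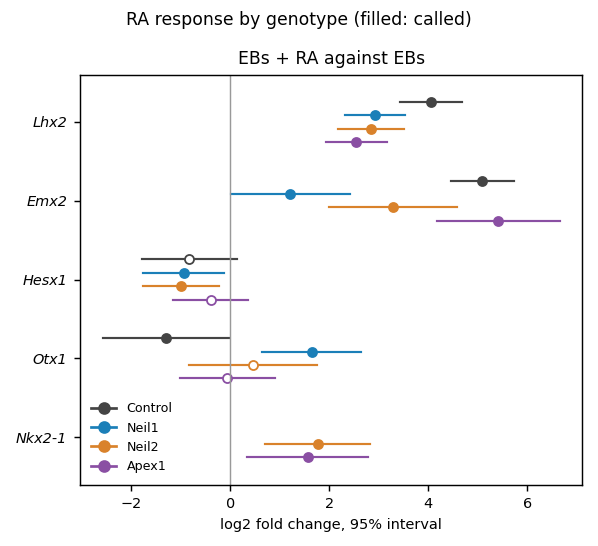
Log2 fold changes of EBs + RA against EBs within each genotype, with 95% intervals and filled points where the gene was called. Lhx2 lies right of 0 in all 4 genotypes, Emx2 lies lowest in Neil1 (1.21) and highest in Apex1 and control (5.42 and 5.09), and Otx1 lies on opposite sides of 0 in control and Neil1 (−1.31 and 1.64). Nkx2-1 was tested in Neil2 and Apex1 lines.

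In EBs + RA the mutants and the controls differed in 4 of the 5 tested members in both Neil lines. Emx2, the homeobox factor of the dorsal telencephalon, stood at 12.9, 9.19 and 14.1 CPM in the controls and at 0.469 to 1.30 CPM in the 6 Neil libraries. It was 15.4-fold lower in Neil1 (log2 fold change −3.95 ± 0.36, FDR = 0.000263) and 12.6-fold lower in Neil2 EBs + RA (−3.66 ± 0.30, FDR = 0.000308). Lhx2 was 2.40-fold lower in Neil1 (−1.26 ± 0.25, FDR = 0.00695) and 2.02-fold lower in Neil2 (−1.01 ± 0.24, FDR = 0.0153). No Neil library reached the lowest control for either gene. The groups did not overlap for 4 of 5 members in each Neil line, and for 52.3% and 48.5% of all genes tested. In bulk RNA, fewer cells of a type and less RNA per cell cannot be told apart.

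Otx1 and Hesx1 moved the other way. Otx1 was read 12, 5 and 9 times in the control EBs + RA, 35, 55 and 27 times in Neil1 and 45, 48 and 23 times in Neil2 EBs + RA. The log2 fold changes were 2.21 ± 0.43 (FDR = 0.00632) and 2.18 ± 0.44 (FDR = 0.00742), that is 4.63-fold and 4.53-fold higher. Hesx1 was 2.49-fold higher in Neil1 (1.32 ± 0.40, FDR = 0.0338) and 2.21-fold higher in Neil2 (1.15 ± 0.39, FDR = 0.0529). All 6 Neil libraries lay above all 3 controls for both genes. The Hesx1 calls were lost in 3 of 6 fits that left out 1 library in each line, those without control replicate 1 or 2 and without the second replicate of the mutant. Nkx2-1 had 10, 17 and 11 counts in the controls, 29, 24 and 8 in Neil1 and 12, 26 and 22 in Neil2, and was not called (FDR = 0.297 and 0.259). Among all genes tested 41.1% were called in Neil1 (21.2% higher and 19.9% lower) and 34.9% in Neil2 EBs + RA (18.3% higher and 16.6% lower).

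In Apex1 EBs + RA 2 of 5 members were called, where 24.8% of all genes were (13.9% higher and 10.9% lower). Lhx2 was counted at 4.53 and 4.01 CPM (3.03-fold lower, log2 fold change −1.60 ± 0.27, FDR = 0.00627) and Emx2 at 4.95 and 3.87 CPM (2.70-fold lower, −1.43 ± 0.25, FDR = 0.00732). Otx1 read 0.423 and 0.548 CPM, and Hesx1 0.762 and 0.959 CPM. Both lay above all controls, in a comparison where 52.5% of all genes did not overlap, but did not pass the test (FDR = 0.295 and 0.245). The comparisons of the 3 mutants share the control libraries, so that their changes are not independent of each other.

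**Figure D3:**
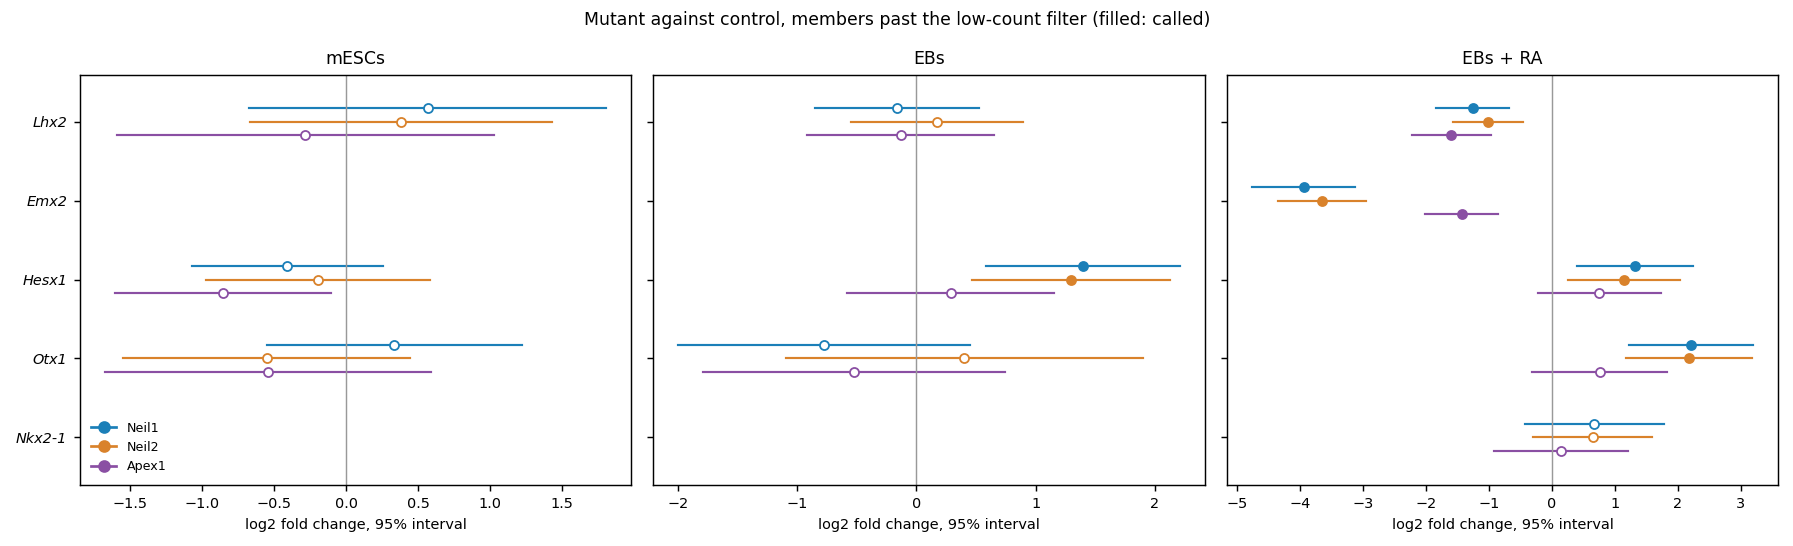
Log2 fold changes of each mutant against control at the 3 stages, with 95% intervals and filled points where the gene was called. Filled points are absent in mESCs, belong to Hesx1 in Neil1 and Neil2 EBs (1.40 and 1.29), and in EBs + RA lie left of 0 for Lhx2 and Emx2 and right of 0 for Hesx1 and Otx1. The panels have different scales.

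Six6, another eye field factor, had 11, 4 and 7 counts in control EBs + RA and 1 to 3 counts in each of the other 8 EBs + RA libraries. It did not pass the filter. Without the filter it was called lower in Neil1 (log2 fold change −2.04, FDR = 0.0735), Neil2 (−2.03, FDR = 0.0755) and Apex1 EBs + RA (−2.56, FDR = 0.0754). The gene that overlaps it on the other strand, 4930447C04Rik, ran the other way in the Neil lines. It averaged 19.7 CPM ± 5.47 (s.d., n = 3) in control EBs + RA, with Neil1 at 69.0 CPM and Neil2 at 75.5 CPM. Apex1 EBs + RA, where Six6 was also lower, averaged 27.5 CPM. Rax and Fezf2 were between 1 and 9 and between 0 and 6 counts per library in EBs + RA.

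Whether the RA response itself differed from that of the controls was tested by the interaction of genotype and RA. In Neil1, 3 of 5 tested members were called (29.6% of all genes, 16.5% higher and 13.1% lower). The rise of Emx2 was smaller (log2 difference −3.83 ± 0.60, FDR = 0.000941), the rise of Lhx2 was smaller (−1.08 ± 0.36, FDR = 0.0476), and the response of Otx1 was higher (2.99 ± 0.76, FDR = 0.0142). In Neil2, Lhx2 was called (−1.20 ± 0.38, FDR = 0.0610), where 15% of all genes were (7.31% higher and 7.7% lower). This call held in 5 of 12 fits that left out 1 library and was lost with all 33 libraries in 1 fit (FDR = 0.134) and at an FDR below 0.05. The differences of Emx2 (−1.79, 95% interval −3.28 to −0.30, FDR = 0.126) and Otx1 (1.76, −0.12 to 3.64, FDR = 0.235) did not pass. With the clone as a block, Otx1 was also called in Neil2 (1.84, FDR = 0.0808). In Apex1, Lhx2 was called (−1.48 ± 0.41, FDR = 0.0389), where 15.7% of all genes were (10% higher and 5.7% lower). It held in 7 of 10 fits that left out 1 library and was lost with all 33 libraries in 1 fit (FDR = 0.134). Emx2 differed by 0.35 (95% interval −1.27 to 1.97). Hesx1 was not called in any of the 3, with 95% intervals of −1.36 to 1.24 in Neil1, −1.37 to 1.03 in Neil2 and −0.84 to 1.75 in Apex1.

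Neil1 and Neil2 lines were also compared with each other. Of the tested members 0 of 3 was called in EBs and 0 of 5 in EBs + RA, and edgeR called 0 genes of 15294 and of 15884 (0% and 0%). At an unadjusted p below 0.05 there were 735 and 1608 genes, none of them a member, and DESeq2 called 1 and 111. The 95% intervals of the Neil2 minus Neil1 log2 difference in EBs + RA were −0.71 to 1.23 for Emx2, −0.32 to 0.73 for Lhx2, −1.01 to 0.87 for Otx1 and −1.03 to 0.61 for Hesx1.

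Lists of other genes gave the setting of these changes. Among 18 genes of the anterior neural plate and telencephalon, Otx2, the factor that maintains the anterior neuroectoderm and is also expressed in epiblast-like pluripotent cells, rose in Neil1 EBs from 54.3 CPM ± 4.94 to 118 CPM ± 6.13 (s.d., n = 3; log2 fold change 1.11 ± 0.09) and in Neil2 EBs to 119 CPM ± 11.4 (1.13 ± 0.13). In EBs + RA it averaged 0.304 CPM in the controls, with Neil1 at 0.713 CPM and Neil2 at 0.917 CPM, and RA lowered it in all 4 genotypes (log2 fold changes from −7.43 to −6.80). Summed over the list, control EBs held 66.1 to 73.3 CPM. Neil1 EBs held 129 to 144, Neil2 120 to 145 and Apex1 116 to 124 CPM. Of 9 list genes tested in EBs, 3 were higher and 3 lower in Neil1, and 2 higher and 2 lower in Neil2 and in Apex1. In EBs + RA 6 of 15 were higher and 5 lower in both Neil lines, and 5 of 14 higher and 5 lower in Apex1. Among all genes, 8.65% to 11.9% were called higher and 7.69% to 13.9% lower in EBs. With RA it was 13.9% to 21.2% and 10.9% to 19.9%. Most genes of the list moved opposite to Otx2 with RA: 8 of 11 rose and 2 fell in control lines, 10 of 13 rose and 2 fell in Neil1, 9 of 13 rose and 1 fell in Neil2, and 11 of 13 rose and 2 fell in Apex1. The median in control was 1.54, beside 0.015 over all genes tested. Of all genes tested, 23.3%, 28.2%, 21.4% and 26.3% were called higher in these 4 comparisons. Here too, genes low in EBs could pass the filter through the EBs + RA libraries. In EBs without RA, Sp8 and Dlx2, a telencephalic zinc finger factor and a factor of the ventral telencephalon, were lower than in control EBs in both Neil lines. Sp8 was lower by 1.55 in Neil1 and by 2.03 in Neil2 EBs on the log2 scale.

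Of 10 eye field and optic vesicle genes, 7 were tested in Neil1 EBs and 8 in Neil2 EBs, with 4 higher and 1 lower in each. In Apex1 EBs 5 of 8 were higher and 1 lower, with Pax6 the largest change. The list summed to 115 to 120 CPM there against 62.6 to 80.1 CPM in control EBs. Of all genes tested, 10.4%, 8.65% and 11.9% were called higher in Neil1, Neil2 and Apex1 EBs. Pax6, required for eye and cortex, rose from 0.906 CPM ± 0.215 to 4.58 CPM ± 2.82 in Neil1 (log2 fold change 2.36 ± 0.43) and to 3.05 CPM ± 0.520 in Neil2 EBs (1.77 ± 0.31). Vax2, a ventral optic vesicle factor, rose by 2.06 ± 0.45 and 2.15 ± 0.50, and Tbx2 fell by 2.94 and 2.32 on the log2 scale. With RA the order turned: Pax6 averaged 98.9 CPM ± 44.5 in control EBs + RA against 5.10 CPM ± 1.70 in Neil1 lines and 6.90 CPM ± 0.919 in Neil2 lines. Of 8 genes tested there, 4 were lower and 0 higher in Neil1, and 3 lower and 1 higher in Neil2. Among all genes, 19.9% and 16.6% were called lower. Nr2f1, an RA-responsive nuclear receptor gene, was at 185 CPM ± 54.6 in control and 6.21 CPM ± 2.38 in Neil1 EBs + RA (−4.91 ± 0.36). Pax6 and Nr2f1 are also expressed in the hindbrain and spinal cord.

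Among 10 hypothalamus and diencephalon genes 2 were tested in the EBs of either Neil line, with 0 higher and 1 lower in each. In EBs + RA 3 were tested, with 2 higher and 1 lower in each. Of 9 secreted antagonists and RA-degrading enzymes that protect the anterior, 2 were higher and 4 lower in Neil1 EBs and 1 higher and 3 lower in Neil2 EBs. Dkk1, a Wnt antagonist of the anterior, stood at 39.1 CPM ± 8.27 in control EBs, against 3.11 CPM ± 0.946 for Neil1 and 3.24 CPM ± 1.84 for Neil2. With RA, 4 of 8 were higher and 3 lower in Neil1, and 2 higher and 2 lower in Neil2. Of all genes tested, 10.4% were called higher and 13.1% lower in Neil1 EBs, and 8.65% and 7.69% in Neil2 EBs. With RA it was 21.2% and 19.9% in Neil1, and 18.3% and 16.6% in Neil2. Sfrp1 and Sfrp2, which encode secreted Wnt antagonists, fell in Neil1 (log2 fold changes −3.76 and −3.44) and in Neil2 (−3.38 and −2.93). Cyp26a1 was at 639 CPM ± 157 in control EBs + RA and 1414 CPM ± 370.1 in Neil1 (1.13 ± 0.23, FDR = 0.00803) and was also higher in Neil2 (1.12 ± 0.26, FDR = 0.0134).

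Genes of the pan-neuroectoderm and of the hindbrain and spinal cord lists were mostly lower in the mutants with RA. Without RA, hindbrain and spinal cord genes were mostly lower too. In EBs 10 of 11 tested were lower in Neil1, 9 of 11 in Neil2 and 10 of 15 in Apex1. The counts called higher were 0, 0 and 1, and 13.1%, 7.69% and 13.9% of all genes were called lower. Of the pan-neuroectoderm genes 4 of 7, 4 of 8 and 3 of 7 were lower in these EBs, and 2 higher in each. Of 12 pan-neuroectoderm genes 10 were tested in EBs + RA, and 10 were lower in Neil1, 7 in Neil2 and 8 in Apex1, with 0 higher. Hes5, a Notch target of neural progenitors, averaged 8.23 CPM ± 3.86 in control EBs + RA, against 0.139 CPM ± 0.0522 for Neil1 and 0.122 CPM ± 0.0868 for Neil2. Sox1 was not analysed here. Of 14 hindbrain and spinal cord genes tested, 10 were lower and 0 higher in Neil1, and 10 lower and 2 higher in Neil2. In Apex1 9 of 14 were lower and 2 higher. Of all genes tested, 19.9%, 16.6% and 10.9% were called lower in Neil1, Neil2 and Apex1 EBs + RA. The list medians in EBs + RA were −3.80 and −3.37 for pan-neuroectoderm and −1.88 and −1.30 for hindbrain and spinal cord, beside 0.0015 and 0.0047 over all genes tested. In control lines RA raised 12 of 15 hindbrain and spinal cord genes, where 23.3% of all genes were called higher. In Neil1 lines it raised 14 of 14 tested, where 28.2% were. The summed level of the list was 6.66 to 8.13 CPM in Neil1 EBs and 237 to 334 CPM in Neil1 EBs + RA. Genes low in EBs could pass the filter through the EBs + RA libraries, which favoured a rise among the genes tested.

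**Figure D4:**
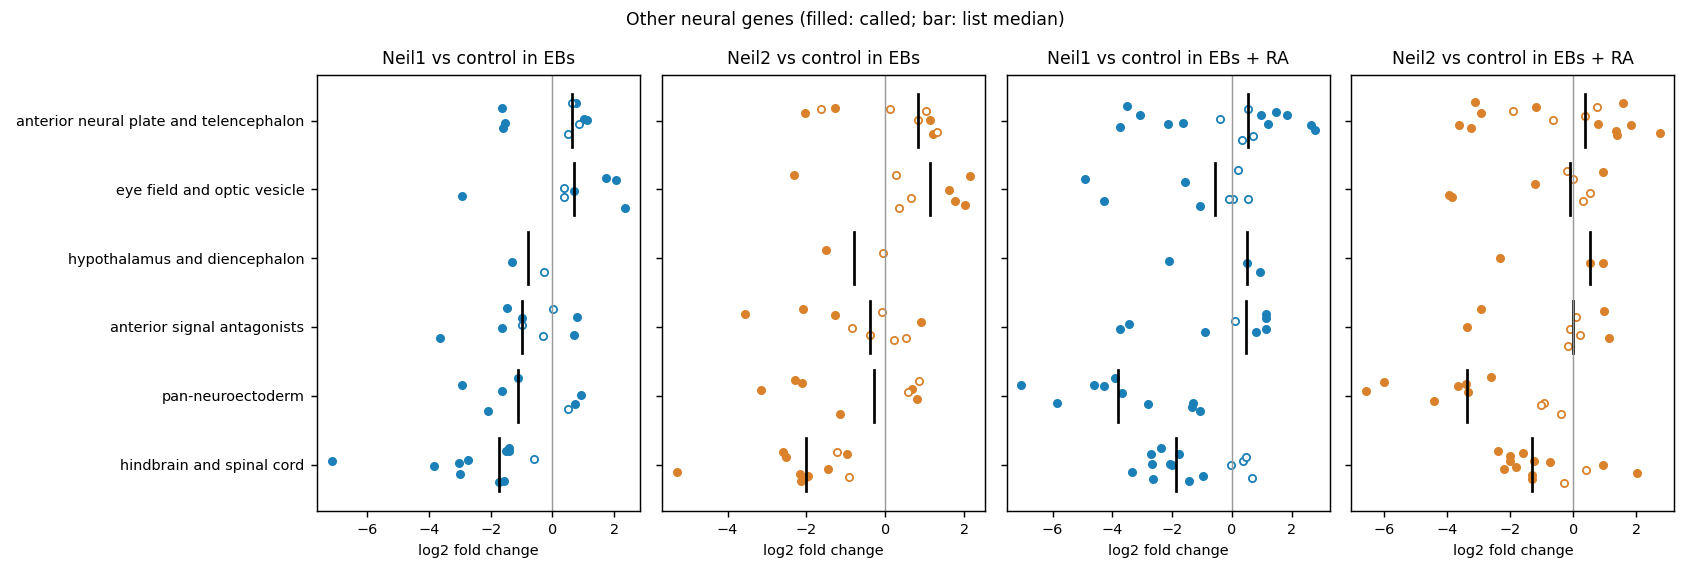
Log2 fold changes of the genes of 6 further lists in Neil1 and Neil2 against control, each point a tested gene, filled where called, with a bar at the list median. In EBs + RA the pan-neuroectoderm medians lie at −3.80 and −3.37, and in EBs the eye field and optic vesicle medians lie at 0.71 and 1.14. Points are shifted up and down so that they can be told apart.

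Markers of other cell types also differed between mutants and controls. Pluripotency markers, to which Hesx1 and Otx2 have ties, were called higher in EBs for 7 of 8 genes in Neil1 and 5 of 8 in Neil2, with summed levels of 4805 to 6222 and 4448 to 5913 CPM against 3042 to 3508 CPM in control EBs. In EBs + RA 8 of 8 were higher in both Neil lines, with summed levels of 537 to 1024 and 575 to 1763 CPM against 198 to 319 CPM. In Apex1 lines 4 of 8 were higher and 1 lower in EBs (5629 to 5741 CPM) and 7 of 8 higher in EBs + RA (1696 to 2275 CPM). Of all genes tested, 10.4%, 8.65% and 11.9% were called higher in Neil1, Neil2 and Apex1 EBs. In EBs + RA it was 21.2%, 18.3% and 13.9%. Intermediate mesoderm markers, the tissue in which Emx2 also acts, were lower for 4 of 6 genes in all 3 mutants with RA, with summed levels of 232 to 258 CPM in control EBs + RA against 83.5 to 142 CPM for Neil1, 91.0 to 116 CPM for Neil2 and 139 to 145 CPM for Apex1. Of all genes tested, 19.9%, 16.6% and 10.9% were called lower in these comparisons. The same sum was 147 to 225 CPM in undifferentiated control mESCs, so that it is not particular to that tissue. Wt1 went from 119 CPM ± 20.1 in control to 9.71 CPM ± 4.08 in Neil1. Of the visceral and foregut endoderm markers 8 of 13 were higher and 1 lower in Neil1 EBs + RA. Their summed levels were 685 to 1311 CPM against 253 to 637 CPM in control EBs + RA. Neil2 EBs + RA had 2 of 13 higher and 1 lower, and 21.2% and 18.3% of all genes were called higher in the 2 lines. Pituitary and placode markers were higher for 1 and lower for 3 of 5 tested in Neil1 EBs, and higher for 1 and lower for 1 in Neil2 EBs, with summed levels of 63.9 to 79.8 CPM in control EBs against 89.4 to 111 and 83.6 to 104 CPM. The list medians of the log2 fold change in these EBs were −0.64 and −0.55, opposite to the sums. The part of these cell types in the changes of the members was not tested.

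The genes most like each member over the 33 libraries were ranked by Pearson r of log2 CPM among 15703 genes, for the 4 members that averaged at least 1 CPM in a group. Nearest to Lhx2 were Hpse (r = 0.95), Foxc2 and Cntln (both 0.94), and among the nearest to Emx2 were D0H4S114 and Shisa3 (both 0.94). Nearest to Hesx1 were Mtap7 (0.82), Mael (0.81) and Sycp3 (0.80), and nearest to Otx1 Adam15 (0.73), Tmem120b (0.72) and Reep4 (0.72). Emx2os, chosen after its values were seen, lies 54 bases from Emx2 on the opposite strand and averaged 1.79 CPM ± 0.371 in control EBs + RA against 0.217 CPM for Neil1, 0.237 CPM for Neil2 and 0.718 CPM for Apex1.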

How the data were processed

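RNA was measured in 33 libraries of mESCs, EBs and EBs + RA. The deposited files held raw counts per Ensembl gene. The authors made them from polyA RNA with a TruSeq kit that does not mark strand, aligned the reads with TopHat2 (version 2.0.9) to NCBIM37 and counted with HTSeq (version 0.5.4, per the processing notes). The strand setting of the counting is not given in the sources used here. Rows that name no gene (21.8% to 30.4% of a library) were left out. Groups came from the labels. In 30 pairs of libraries of one group the counts differed by more than sampling noise.

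Counts were analysed with edgeR 4.0.16 (limma 3.58.1, R 4.3.3): filterByExpr, TMM, robust quasi-likelihood fit of the groups compared, and Benjamini-Hochberg adjustment over all genes tested. Calls needed an FDR below 0.1 together with a log2 fold change beyond 0.5 in either direction. Standard errors come from the same fit, and log2 CPM used a prior count of 2. Tables and figures were made with Python 3.11.15, numpy 2.4.6, pandas 2.3.3, scipy 1.17.1 and matplotlib 3.10.9. The scripts were tested on simulated data. Alternatives were DESeq2 1.42.0, RLE factors, no filter, at least 10 counts in every sample, 1 fit of all 33 libraries, an FDR below 0.05, each library left out, and a replicate block. For comparisons of stages the block is the clone, which the labels give: deviations of the same clone at 2 stages correlated above 0.1 in 14 of 27 pairs (median r 0.11), and those of other clones in 13 of 54 (median −0.06). Between EBs and EBs + RA it was 9 of 9 same-clone pairs (median r 0.37), with a median of −0.18 for other clones. Between mESCs and EBs the median r was −0.003 for the same clone and 0.027 for other clones, so that the counts did not show the pairing there.

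The members and lists were chosen with earlier results of these data known. Named beyond the members were up to 3 called genes per list and comparison with the largest change, the targeted genes, and the 3 genes most like each member. Some genes that this rule reaches are not reported here. Otx2 and Pax6 in Neil2 EBs, Otx2 in Neil1 EBs, Cyp26a1 in Neil1 EBs + RA, 4930447C04Rik and Emx2os were named after their values were seen. For 4 list genes with 2 identifiers (Gsx2, Pou3f1, Hoxa3 and Dab2) the one with more counts was used, a choice made after seeing the data, and their values are uncertain.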

Additional observations from a re-analysis of the deposited data

Results flagged for a closer look

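In 5 cases the response of a member to RA differed from that of the controls by the interaction test. In Neil1 lines the log2 difference was −1.08 for Lhx2, −3.83 for Emx2 and 2.99 for Otx1. For Lhx2 it was −1.20 in Neil2 and −1.48 in Apex1 lines. The Emx2 and Otx1 differences in Neil1 were called in 12 of 12 fits that left out 1 library. The Lhx2 difference was called in 11 of 12 such fits in Neil1 (not without the EB library of clone #11), 5 of 12 in Neil2 and 7 of 10 in Apex1, and in none of the 3 when all 33 libraries entered 1 fit.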

How the results depend on the processing

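Of 34 called results of single members, 0 changed direction under any alternative run, 20 were called in every fit without 1 library, and 23 under every other alternative. The number of members called moved as follows. With no filter on low counts it was 2 in Neil2 EBs, 1 in Apex1 EBs, 2 for EBs against mESCs in Neil2 and 2 for the Apex1 interaction. With at least 10 counts in every sample it was 1 for RA in control, 2 in Neil1, 2 in Neil2 and 1 in Apex1, 1 for EBs against mESCs in Neil2 and 1 for the Neil1 interaction, where fewer members were tested. With all 33 libraries in 1 fit it was 2 in Neil2 EBs, 5 for RA in control, 2 for EBs against mESCs in control and in Neil2, and 0 for the Neil2 and Apex1 interactions. At an FDR below 0.05 it was 0 in Neil2 EBs, 2 for RA in Neil1, 0 and 1 for EBs against mESCs in control and Neil1, and 0 for the Neil2 interaction. DESeq2, run without the filter, called 3 of 9 for the Neil2 interaction, 2 of them among the 5 that passed the filter. For EBs against mESCs in control it called 1, but not Hesx1. With the replicate block it was 2 in Apex1 mESCs (a shared number only), 0 for EBs against mESCs in control and 2 for the Neil2 interaction, and no other count moved by over 1.5 times. Scaling by raw library totals moved Lhx2 in Apex1 EBs + RA to 4.71 CPM. Except where a filter tested fewer members, the cause was not tested.

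Leaving out 1 library gave counts of 0 to 2 in Apex1 mESCs (2 without control replicate 3), 1 to 2 in Neil1 EBs, 0 to 1 in Neil2 EBs (0 without control replicate 1 or 2), 0 to 1 in Apex1 EBs, 2 to 5 for RA in Neil1, 0 to 2 for EBs against mESCs in control and in Neil1, 0 to 1 in Neil2, and 0 to 2 and 0 to 1 for the Neil2 and Apex1 interactions. Where this left 1 Apex1 library in a group, its spread was taken from the other libraries. Six3, Six6, Rax and Fezf2 had at most 14 counts in any library, which limits what could be detected in them.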
